A study of Homo sapiens with 6 samples.

Results

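The ligands of the EGF family and the ERBB receptors they bind were followed in SiHa, an established human line from a cervical squamous carcinoma. The 9 members were AREG, EREG, EPGN, BTC, TGFA, HBEGF, EGFR, ERBB2 and ERBB3, matched by name to 9 of the 35544 loci of the deposited expression table. The members were chosen by their FPKM difference between the same 2 groups compared here, so their differences are described and carry no test. Of the 9, 8 had a row of their own, and ERBB3 shared its row with PA2G4, the gene beside it, so the ERBB3 row holds both genes and cannot be split. PolyA RNA was sequenced from 3 libraries of cells given a vector plasmid and from 3 libraries of cells given a plasmid for the circular RNA hsa_circ_0005358, all collected 72 h after transfection, to look for mRNAs that act downstream of that RNA. Both groups were the same line on the same schedule and differed in the plasmid. The labels do not say whether the libraries came from separate cultures, so each p-value reflects the spread among the 6 libraries alone, and that spread may be technical. The level of the circular RNA, which lacks a polyA tail, was not analysed here, and the labels spell its name in more than 1 way.

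EGF family ligands are made as membrane-anchored precursors, and metalloproteases of the ADAM family cut them free so that they can act on the same or neighbouring cells. AREG, EPGN and TGFA bind the receptor EGFR, EREG, BTC and HBEGF also bind ERBB4, and bound receptors pair up and phosphorylate one another. ERBB2 has no known ligand and serves as the preferred partner, while ERBB3 has a weak kinase and signals mainly through its partner to PI3K. In squamous epithelia the ligands form autocrine loops that support growth, migration and wound closure, and ERK signalling below EGFR in turn induces several of the ligand genes.

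Several of the members share a place in the genome that the choice did not use. EPGN, EREG, AREG and BTC lie side by side on chromosome 4 of GRCh38, in that order from 74308473 to 74794686, with BTC on the minus strand and the other genes on the plus strand. TGFA lies on chromosome 2 from 70447280 to 70554193 and HBEGF on chromosome 5 from 140332843 to 140346631, both on the minus strand. EGFR lies on chromosome 7 from 55019021 to 55211628, ERBB2 on chromosome 17 from 39687914 to 39730426 and ERBB3 on chromosome 12 from 56076799 to 56103505, all on the plus strand. These positions are from GENCODE 29, since the table holds none, while the submitters' processing notes name the build hg19. The promoters of EREG, EPGN and AREG on chromosome 4 are shown because they are neighbours that were all lower with the circular RNA plasmid, beside TGFA, a lower ligand on another chromosome, and HBEGF, whose groups overlapped. Each window runs from 250 bases before to 50 bases after the start of the transcript, from RefSeq on GRCh38.p14, and capitals mark every match to 5 motifs on either strand. The letters searched were TATAAA for the TATA box, GGGCGG for the GC box and GGAATG for the TEAD site. The AP-1 site was searched as TGANTCA and the cAMP response element, CRE, as TGACGTCA.
EREG, chr4:74364895-74365194, plus strand: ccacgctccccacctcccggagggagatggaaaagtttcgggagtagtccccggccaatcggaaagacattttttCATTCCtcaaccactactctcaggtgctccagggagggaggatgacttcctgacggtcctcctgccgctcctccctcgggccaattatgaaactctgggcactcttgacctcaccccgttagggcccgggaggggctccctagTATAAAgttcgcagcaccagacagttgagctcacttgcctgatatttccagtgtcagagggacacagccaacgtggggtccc
EPGN, chr4:74308220-74308519, plus strand: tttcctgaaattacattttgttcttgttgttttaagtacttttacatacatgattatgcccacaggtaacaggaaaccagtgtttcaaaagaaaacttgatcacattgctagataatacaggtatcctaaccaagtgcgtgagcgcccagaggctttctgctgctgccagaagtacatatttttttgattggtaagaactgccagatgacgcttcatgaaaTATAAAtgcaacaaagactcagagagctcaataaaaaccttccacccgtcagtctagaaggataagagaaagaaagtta
AREG, chr4:74444886-74445185, plus strand: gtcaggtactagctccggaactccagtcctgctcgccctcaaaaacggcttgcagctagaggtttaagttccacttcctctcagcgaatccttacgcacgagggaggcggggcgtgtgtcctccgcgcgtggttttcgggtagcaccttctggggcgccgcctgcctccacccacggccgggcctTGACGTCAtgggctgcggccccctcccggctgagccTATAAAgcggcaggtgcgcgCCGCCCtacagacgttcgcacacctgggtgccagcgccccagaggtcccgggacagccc
TGFA, chr2:70553777-70554076, minus strand: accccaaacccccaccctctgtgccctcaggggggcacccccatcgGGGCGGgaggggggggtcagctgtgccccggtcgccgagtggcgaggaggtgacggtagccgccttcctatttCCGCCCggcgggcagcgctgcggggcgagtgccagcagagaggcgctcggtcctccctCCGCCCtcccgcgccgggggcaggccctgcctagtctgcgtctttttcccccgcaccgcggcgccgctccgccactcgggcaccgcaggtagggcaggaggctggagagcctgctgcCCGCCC
HBEGF, chr5:140346554-140346853, minus strand: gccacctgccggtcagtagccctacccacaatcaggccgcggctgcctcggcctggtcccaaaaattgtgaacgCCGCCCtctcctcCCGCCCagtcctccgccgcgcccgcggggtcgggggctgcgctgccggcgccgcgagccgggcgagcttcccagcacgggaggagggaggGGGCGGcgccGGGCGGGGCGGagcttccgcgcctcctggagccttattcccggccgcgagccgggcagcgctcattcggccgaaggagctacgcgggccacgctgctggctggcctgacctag

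EREG, EPGN and AREG each had a TATA box just ahead of the start, with its first base at -32, -29 and -29. TATAAA on either strand occurred in 11.5% of all 35116 promoter windows of this length. TGFA and HBEGF had none in these windows, and instead had 4 and 5 GC box matches, a motif found in 45.0% of all windows. BTC, lower too and in the same block, had 1 GC box match and no TATAAA, so neither motif separated the lower ligands from HBEGF. TGFA's other annotated start had no match to any of the motifs. AREG also had 1 GC box match and a CRE at -65, found in 1.85% of windows, and EREG a TEAD match at -175, found in 14.03%. Among the receptors, the upstream EGFR start had 3 GC box matches, and the downstream start had 2 TATA box matches, 2 AP-1 matches (7.71% of windows) and 1 TEAD match. ERBB2 had 1 AP-1 match. The windows of EPGN and EREG held 37.7% and 57.7% G and C, against a median of 58.7% over all windows, and those of AREG, TGFA and HBEGF 66.3%, 75.3% and 75%. A window was found for 8 of the 9 members. The matches describe letters and not bound sites.

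**Figure D1:**
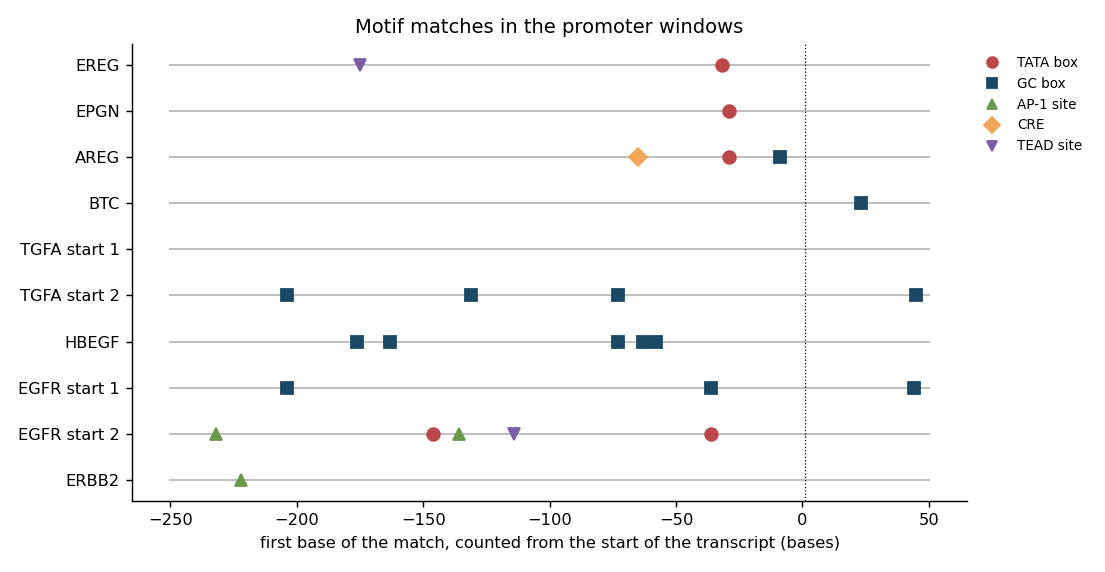
Motif matches in the promoter windows of the members, by the first base of each match counted from the transcript start (dotted line), with 1 line per window and 1 symbol per motif. A TATA box sits at -32 to -29 in EREG, EPGN and AREG, while TGFA start 2 and HBEGF carry 4 and 5 GC boxes.

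The libraries were of similar size, with 1 exception. Values are FPKM, fragments scaled to transcript length and to library size. The depth implied by the value of 1 fragment was 71.1% of the deepest library for circ_0005358 replicate 2 and 93.6% to 100% for the other 5, and vector replicate 3 listed 27803 loci above 0 against 23227 to 23834 in the others. Epithelial identity was checked on 8 markers: 6 reached 1 FPKM, led by KRT17 at up to 666 FPKM, while the squamous markers TP63 and KRT5 stayed below 1 FPKM on rows of their own. The summed epithelial markers ranged from 1253 to 1323 FPKM for vector and from 617 to 695 FPKM for circ_0005358. The markers did not move by the same step. KRT17 averaged 625 FPKM for vector and 205 for circ_0005358, KRT8 180 and 85.1, KRT18 142 and 94.9, and KRT7 348 and 269. These and EPCAM were lower with the groups apart, while KRT19 overlapped. Leukocyte and endothelial markers reached no more than 0.161 and 0.332 FPKM, and of 6 fibroblast markers only LUM passed 1 FPKM. LUM averaged 7.47 FPKM for vector and 1.43 for circ_0005358, and with it the summed fibroblast markers ranged from 7.06 to 10.6 and from 2.67 to 3.12 FPKM. COL1A1 was also lower with the groups apart, COL1A2 overlapped, and COL3A1 (0.109 to 0.821 FPKM), PDGFRB (0.0949 to 0.225 FPKM) and DCN (0.156 to 0.205 FPKM) were higher with the groups apart. The part of these shifts in the differences described next was not tested. In bulk RNA, fewer cells of a type and less RNA per cell cannot be told apart.

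EREG, which encodes epiregulin, was the most abundant of the ligands in either group and was about 5-fold lower with the circular RNA plasmid. It stood at 30.0, 28.7 and 27.0 FPKM in the vector libraries and at 5.63, 7.08 and 4.85 FPKM in the circ_0005358 libraries. Every vector library was far above every circ_0005358 library. The means were 28.6 ± 1.49 and 5.86 ± 1.13 FPKM (SD, n = 3 each), a ratio of 0.205. Log2 fold changes were taken from log2(FPKM + 1), where the added 1 shrinks the change of low genes. EREG had -2.12 (standard error 0.13), the value at place 27 from the lowest of 10295 tested loci.

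EPGN, which encodes epigen, stood at 8.66, 12.4 and 8.41 FPKM in the vector libraries against 2.56, 2.66 and 2.92 FPKM with the circular RNA plasmid. The groups did not overlap, and vector replicate 2 was the high library of its group. The means were 9.82 ± 2.23 and 2.71 ± 0.184 FPKM (SD, n = 3 each), a ratio of 0.276 and a log2 fold change of -1.53 (standard error 0.15).

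TGFA, the gene of transforming growth factor alpha, was lowest in proportion. It stood at 4.32, 4.39 and 2.95 FPKM in the vector libraries against 0.601, 0.695 and 0.530 FPKM with the circular RNA plasmid. All 3 circ_0005358 libraries were below 1 FPKM, so the gene passed the filter for testing through its vector libraries alone. The ratio of the means, 3.89 ± 0.811 and 0.608 ± 0.0829 FPKM (SD, n = 3 each), was 0.157, and the log2 fold change was -1.59 (standard error 0.14).

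AREG, which encodes amphiregulin, differed less. It stood at 4.35, 3.43 and 2.96 FPKM in the vector libraries against 2.22, 1.61 and 1.95 FPKM with the circular RNA plasmid, groups that did not overlap. The ratio of the means was 0.538 and the log2 fold change -0.64 (standard error 0.14). The build hg19 carries a near-identical copy of this gene, AREGB, and how fragments were shared between the copies is not given in the sources used here, so the AREG level is uncertain.

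BTC, which encodes betacellulin, stood at 2.70, 2.60 and 3.01 FPKM in the vector libraries against 1.71, 1.82 and 1.90 FPKM with the circular RNA plasmid. These groups were apart too, by a smaller step, with a ratio of 0.654 and a log2 fold change of -0.42 (standard error 0.070). HBEGF, the heparin-binding ligand, was the exception among the 6. It stood at 1.18, 0.449 and 1.31 FPKM in the vector libraries against 1.27, 1.03 and 1.44 FPKM with the circular RNA plasmid. The groups overlapped, and the low vector replicate 2 set the sign: the log2 fold change was 0.21 (standard error 0.20) with it and -0.0010 without it.

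**Figure D2:**
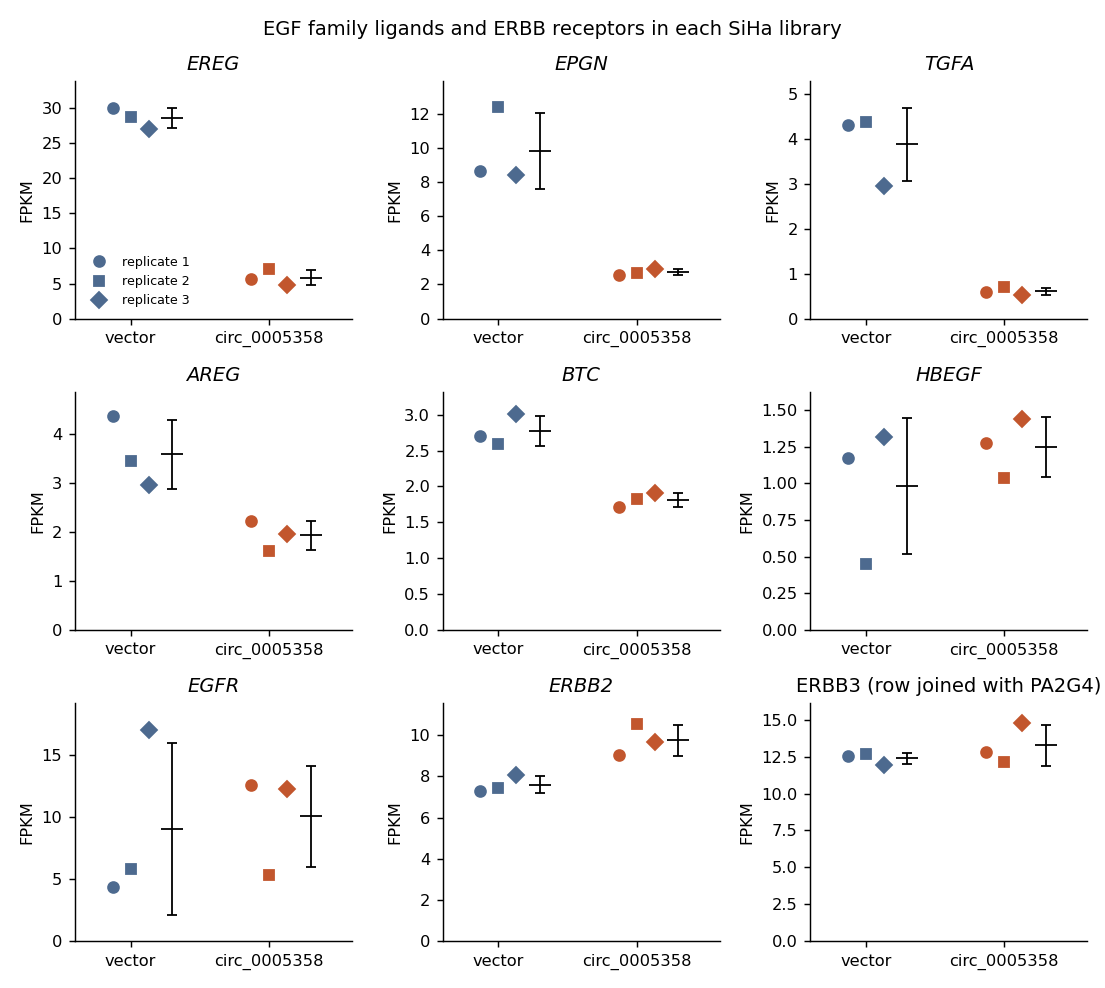
FPKM of each member in each library, with vector in blue, circ_0005358 in orange, 1 symbol shape per replicate number and a black bar for the mean with its SD (n = 3). The groups are apart for EREG, EPGN, TGFA, AREG and BTC, lower with circ_0005358, and for ERBB2, higher with circ_0005358, and they overlap for HBEGF, EGFR and the ERBB3 row.

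The order of the ligands differed between the groups. With vector it ran from EREG through EPGN to TGFA and AREG, whose ranges of 2.95 to 4.39 and 2.96 to 4.35 FPKM overlapped, then to BTC, whose highest library reached into both, and last to HBEGF. With circ_0005358, EREG still led, followed by EPGN, then AREG and BTC with overlapping ranges, then HBEGF, and TGFA came last. FPKM is scaled to length, so the levels can be set side by side. Summed over the 6 ligands, the level was 49.6 ± 3.44 FPKM for vector and 14.2 ± 0.673 FPKM for circ_0005358 (SD, n = 3 each), a ratio of 0.285. EREG accounted for 64.1% of the difference between these sums, EPGN for 20.1% and TGFA for 9.24%. The EREG share of the sum was 55.2% to 59.2% in the vector libraries and 35.7% to 47.5% in the circ_0005358 libraries, ranges that did not meet. The EPGN share overlapped, at 16.9% to 23.8% and 17.8% to 21.5%. The HBEGF share was 0.864% to 2.88% with vector and 6.94% to 10.6% with circ_0005358, although its level overlapped, since a share rises when the sum falls. The mean AREG and BTC shares were also higher, at 7.19% and 5.62% with vector against 13.7% and 12.8% with circ_0005358, though both levels were lower. The mean TGFA share was lower (7.78% and 4.28%).

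**Figure D3:**
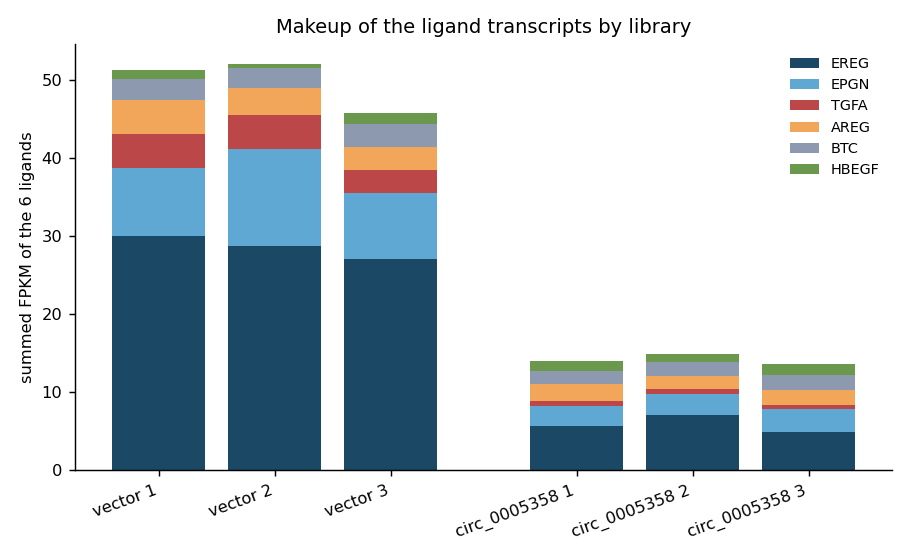
Summed FPKM of the 6 ligands in each library, stacked by ligand. The vector libraries reach 45.7 to 52.0 FPKM and the circ_0005358 libraries 13.6 to 14.9 FPKM, and the EREG segment makes up most of the difference.

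The receptors did not share this pattern. EGFR stood at 4.38, 5.77 and 17.0 FPKM in the vector libraries against 12.6, 5.35 and 12.3 FPKM with the circular RNA plasmid. Each group thus held libraries near 5 FPKM and libraries above 12 FPKM, and the difference between the groups was well within that spread. The means were 9.05 ± 6.93 and 10.1 ± 4.07 FPKM (SD, n = 3 each), and the log2 fold change was 0.27 (standard error 0.55). The highest EGFR library was 3.89 times the lowest with vector and 2.35 times with circ_0005358. A range of at least 2-fold within both groups occurred in 4.84% of the 5723 tested loci with a mean of at least 5 FPKM. The EGFR row joins 16 transcripts and the ERBB2 row, whose libraries differed by no more than 1.16-fold within a group, joins 21. Without vector replicate 3 and circ_0005358 replicate 2 the log2 fold change was 1.15, without vector replicate 3 alone 0.79, without circ_0005358 replicate 2 alone 0.63, and without vector replicate 1 it was -0.08.

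ERBB2, the partner receptor without a ligand of its own, stood at 7.30, 7.43 and 8.07 FPKM in the vector libraries against 9.05, 10.5 and 9.66 FPKM with the circular RNA plasmid. The groups did not overlap, with all circ_0005358 libraries higher, a ratio of 1.28 and a log2 fold change of 0.32 (standard error 0.076). The row of ERBB3 and PA2G4 stood at 12.5, 12.7 and 11.97 FPKM and at 12.9, 12.2 and 14.8 FPKM, overlapping groups whose log2 fold change was 0.087 (standard error 0.083). PA2G4 encodes a widely expressed protein that binds ERBB3, and the row does not show which of the genes its fragments came from.

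Across all 10295 loci with at least 1 FPKM in at least 3 libraries, limma called 1171 at an adjusted p under 0.05, which is 11.4%, with 6.41% higher and 4.96% lower with circ_0005358. All 9 member rows passed the filter, and 5 were past the threshold, all lower: EREG, EPGN, TGFA, AREG and BTC. No member row was past it in the higher direction, and 1 of them, ERBB2, had an unadjusted limma p under 0.05. The share of all tested loci at that unadjusted level was not tallied, so counts at it have no background to be read against. Groups were apart and lower in 15.9% of all tested loci and in 5 of the member rows, and apart and higher in 19.8% and in 1, together 35.8% of all tested loci. Because the members were picked with this contrast known, the counts describe them and support nothing. Over 12 other settings of the analysis, EREG was past the threshold in 12, EPGN in 11, BTC in 3 and AREG in 2. TGFA was tested in 8 of these settings and was past it in all 8. Over the same 12 settings, the count of all called loci ranged from 198 (of 9735 tested) to 1143 (of 10295 tested). These member tallies, too, describe chosen genes and support nothing. Without vector replicate 3 and circ_0005358 replicate 2, the libraries that stood apart, the log2 fold changes were -2.28 for EREG, -1.61 for EPGN, -1.77 for TGFA, -0.66 for AREG and -0.38 for BTC.

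The remaining members of the family were at low levels. EGF, NRG1, NRG2, NRG3, NRG4 and ERBB4, the other ligands and the fourth receptor, each had a row and none of the 6 passed the filter. NRG4 was the most abundant, at a mean of 0.817 FPKM for vector against 1.03 for circ_0005358, and NRG1 stood at 0.715 and 0.475 FPKM. EGF itself and ERBB4 averaged no more than 0.0775 FPKM in either group.

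Genes that act on the ligands or below the receptors were taken from 4 further lists, in which 67 genes on rows of their own were tested. Of the 67, 6 were called higher and 3 lower, together 13.4% against 11.4% of all tested loci, with a median log2 fold change of 0.013 against 0.022. Among 7 tested sheddases and their trafficking partners, 2 rose and 0 fell, while the list's median of -0.34 had the opposite sign. ADAM12, a metalloprotease that can release HBEGF, rose from 0.430 to 1.44 FPKM (log2 fold change 0.77, limma adjusted p = 0.00373), and it passed the filter through the circ_0005358 libraries alone, leaving the test when any of these was left out. RHBDF1, an inactive rhomboid that escorts ADAM17, rose from 1.62 to 2.95 FPKM (log2 fold change 0.59, limma adjusted p = 0.0448), a call lost without any 1 of the 6 libraries (adjusted p from 0.0501 without vector replicate 3 to 0.141 without vector replicate 2). ADAM17, the main sheddase of AREG, EREG and TGFA, did not pass, with 7.87, 7.95 and 8.43 FPKM in the vector libraries and 6.69, 4.32 and 6.86 FPKM in the circ_0005358 libraries. These ADAM17 groups did not overlap (log2 fold change -0.41, limma adjusted p = 0.188). ADAM10, the sheddase of BTC, had a log2 fold change of -0.34 with overlapping groups. RHBDF2, the other inactive rhomboid of the list, went the opposite way to RHBDF1. It stood at 2.54 FPKM for vector and 1.73 for circ_0005358, with the groups apart (log2 fold change -0.38, limma adjusted p = 0.102). RHBDF2 was called lower only without circ_0005358 replicate 2. ADAM9 was lower with the groups apart too, at 31.5 and 26.6 FPKM, and was not called (log2 fold change -0.24, limma adjusted p = 0.0788).

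Among 25 tested adaptors, RAS-ERK and PI3K genes, 4 rose and 1 fell. VAV2, an exchange factor recruited to EGFR, stood at 5.97, 10.03 and 9.84 FPKM in the vector libraries against 16.6, 16.8 and 17.6 FPKM with the circular RNA plasmid, and rose by 0.93 on the log2 scale (limma adjusted p = 0.0373). Without vector replicate 1 the VAV2 call held (adjusted p = 0.0114), and leaving out any other single library ended it (0.0669 without vector replicate 2 to 0.114 without circ_0005358 replicate 3). The PI3K subunits that were called went opposite ways. PIK3R1, a regulatory subunit, rose from 7.20 to 10.5 FPKM (limma adjusted p = 0.0079). PIK3CA, a catalytic one, fell from 10.7 to 8.05 FPKM (limma adjusted p = 0.0109). PIK3CB, another catalytic subunit, was lower with the groups apart and was not called (16.9 and 14.8 FPKM, limma adjusted p = 0.126). The rows of PIK3R2 and PIK3R3, other regulatory subunits, are shared with further genes and were not called (log2 fold changes 0.10 and -0.47). Leaving out vector replicate 1 or vector replicate 2 ended the PIK3CA call (adjusted p = 0.0524 and 0.0558). STAT5B, a transcription factor activated by ERBB receptors, rose from 7.56 to 10.1 FPKM and BRAF, a RAF kinase, from 4.996 to 6.33 FPKM (limma adjusted p = 0.0165 and 0.0365). The BRAF call was lost without any 1 of the 6 libraries (adjusted p from 0.0863 without circ_0005358 replicate 2 to 0.114 without circ_0005358 replicate 3), and the STAT5B call without any but vector replicate 3 (0.0515 without circ_0005358 replicate 2 to 0.0710 without vector replicate 2).

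None of 22 tested genes that restrain or internalise the receptors was called by limma. At an unadjusted p under 0.05, a level whose share over all loci was not tallied, 2 were higher and 3 lower. ERRFI1, an inhibitor of the EGFR kinase, stood at 13.6, 2.78 and 14.5 FPKM in the vector libraries against 12.7, 11.8 and 10.8 FPKM with the circular RNA plasmid. CBL, the ubiquitin ligase of EGFR, stood at 12.5, 14.6 and 13.4 FPKM and at 3.42, 13.5 and 13.4 FPKM. As with EGFR, single libraries of these genes lay several-fold from the others of their group, and both genes were chosen after their values were seen.

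Of 13 tested ERK outputs and feedback genes, 0 rose and 2 fell by limma. At an unadjusted p under 0.05, again without a share over all loci, 2 were higher and 3 lower. SPRY2, a feedback inhibitor of receptor signalling, stood at 1.62, 1.97 and 1.94 FPKM in the vector libraries against 0.992, 0.736 and 0.943 FPKM with the circular RNA plasmid (log2 fold change -0.59, limma adjusted p = 0.0151). DUSP4, a phosphatase of ERK, stood at 1.24, 1.31 and 1.53 FPKM and at 0.732, 0.479 and 0.590 FPKM (log2 fold change -0.56, limma adjusted p = 0.0179). Both passed the filter through the vector libraries alone and left the test when any of these was left out. Both calls were lost without circ_0005358 replicate 3 (adjusted p = 0.0541 for SPRY2 and 0.0657 for DUSP4) and with no filter on low values (0.0596 and 0.0759). EGR1, an immediate early gene chosen after its values were seen, did not pass and had the opposite sign, at 0.222, 0.372 and 3.80 FPKM in the vector libraries against 5.31, 7.14 and 5.40 FPKM with the circular RNA plasmid (log2 fold change 1.78, limma adjusted p = 0.104). Without vector replicate 3, EGR1 was called higher. JUN was listed at 0 in vector replicates 2 and 3 and JUNB in 4 of the 6 libraries, so neither gives a usable level here.

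**Figure D4:**
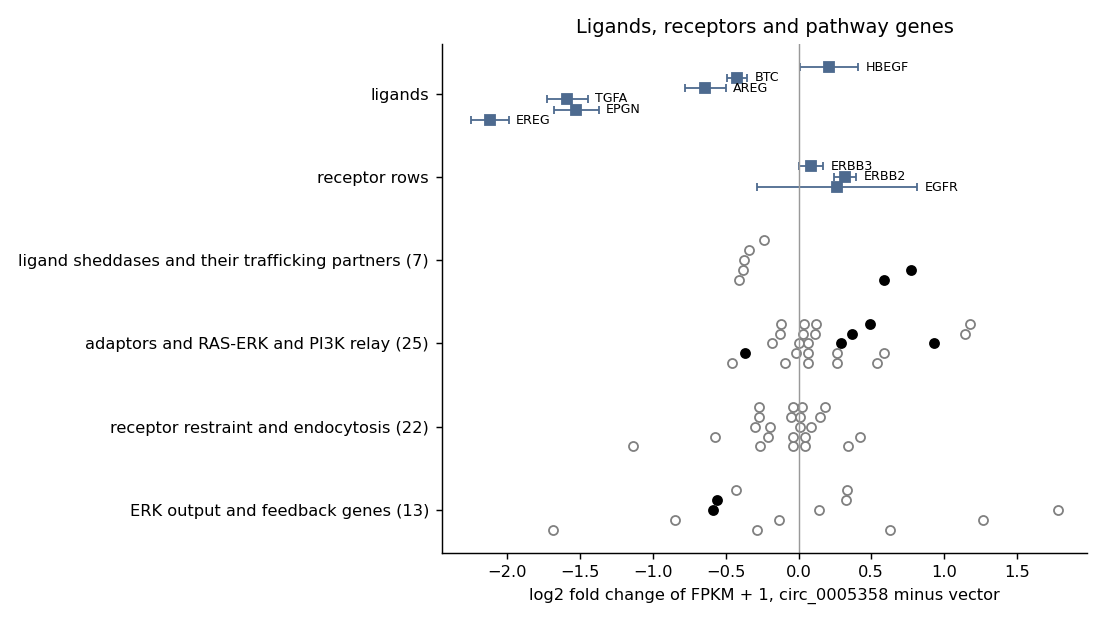
Log2 fold change of FPKM + 1, circ_0005358 minus vector, for the members (blue squares with their standard error, no test) and for the tested genes of each pathway list (circles, filled where limma's adjusted p was under 0.05, with the number of genes tested). EREG, TGFA and EPGN lie from -2.12 to -1.53, and the called pathway genes lie between -0.59 and 0.93.

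Genes beside the chromosome 4 ligands were compared to place the block in its surroundings. No other tested gene lay between EPGN and BTC. Of the 4 nearest tested genes on each side, CXCL1 alone was called, and the median log2 fold change of the 8 was -0.080. CXCL1, a neutrophil-attracting chemokine whose gene starts at -495.8 kb from the start of EREG, fell from 2.16 to 1.30 FPKM (log2 fold change -0.45, limma adjusted p = 0.0417). The call was lost without any 1 of the libraries other than vector replicate 3 (adjusted p from 0.0826 without circ_0005358 replicate 1 to 0.135 without vector replicate 2). The nearest tested gene on the far side, RCHY1 on the minus strand, has its lower coordinate 1113.9 kb beyond that of EREG. Its log2 fold change was 0.093. Within the block the log2 fold change was lowest for EREG, then EPGN, AREG and BTC.

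**Figure D5:**
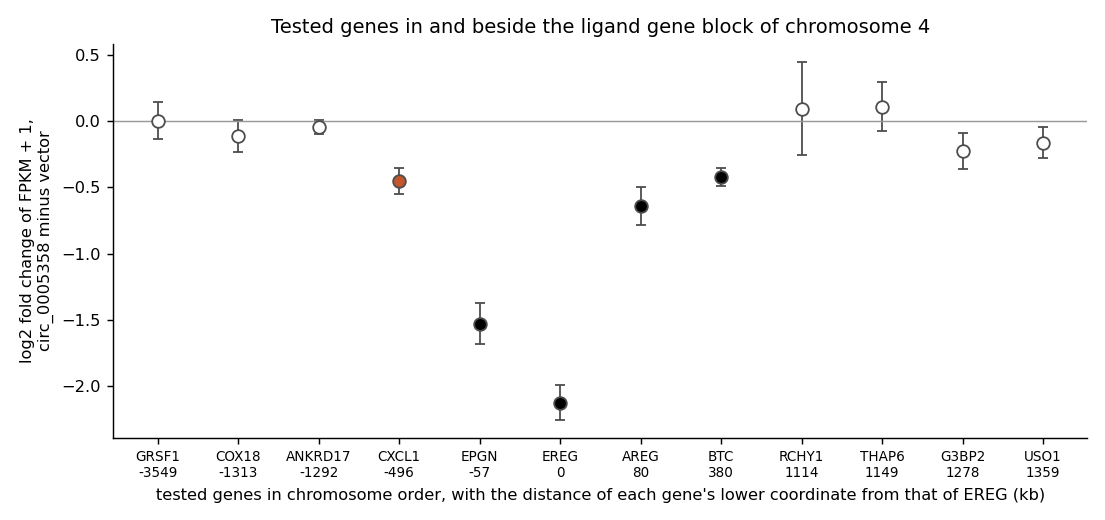
Log2 fold change of FPKM + 1, circ_0005358 minus vector, with its standard error, for the tested genes in and beside the ligand block in chromosome order. Under each name is the distance in kb of the gene's lower coordinate from that of EREG. Black points are ligands, the orange point (CXCL1) is the neighbour past the threshold, and the open points are the 7 neighbours that did not pass.

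The genes most like EREG and ERBB2, the members with the lowest and the highest log2 fold change, were found by the root mean square difference of their log2(FPKM + 1) values, centred on the vector mean, over the 6 libraries and 9571 other tested genes with a symbol. For EREG the nearest were IL32, a cytokine gene (difference 0.12), ADGRL2, an adhesion receptor gene (0.16), LAMB3, a laminin chain gene on a row shared with a microRNA gene (0.17), the long noncoding UCA1 (0.18) and CA2, a carbonic anhydrase gene (0.22), against a median of 1.53 over all genes. IL32 stood at 16.7, 16.0 and 13.3 FPKM in the vector libraries against 3.20, 3.02 and 2.17 FPKM with the circular RNA plasmid, and UCA1 at 8.91, 10.7 and 11.7 FPKM and at 1.84, 1.79 and 1.45 FPKM. ADGRL2 (means of 5.17 and 0.383 FPKM) and CA2 (6.11 and 0.503 FPKM) fell further in proportion. Their ratios were 0.0742 and 0.0823 against 0.205 for EREG, and the added 1 shrinks such changes. All their circ_0005358 libraries were below 1 FPKM, so ADGRL2 and CA2 passed the filter through vector alone. TGFA came at place 16 (0.40) and EPGN at place 27 (0.48). Both were chosen by their difference in this same contrast, so their places are description only. For ERBB2 the nearest were UNC45A, RPAP1, SLC27A4, CPSF1 and MED16, at 0.017 to 0.025 against a median of 0.29. These genes were picked by likeness of pattern, so log2 fold changes near that of ERBB2 (0.29 to 0.32) follow from the choice. The same holds for the genes nearest to EREG.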

How the data were processed

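The authors deposited 1 table of FPKM values for 35544 loci in 6 SiHa libraries. Trimmomatic, HISAT2 and the build hg19 are named, per the submitters' processing notes. Tool versions, the annotation and the FPKM program were not given in the sources used here. A row was taken for a gene if it held 1 name or 1 protein-coding name; of several rows the one with the highest mean was kept. Each member stood on 1 row. The table holds no counts, so limma 3.58.1 (R 4.3.3, variance trend, two-sided, Benjamini-Hochberg over all tested loci, threshold 0.05) was fitted to log2(FPKM + 1) on the 10295 loci where 3 or more libraries reached 1 FPKM, and was checked on simulated data. Depth was estimated relative to the deepest library from the smallest FPKM step on single-transcript loci; no counting interval was drawn. Members, lists and tests were chosen with earlier results of these data known. Genes named by rule are the members, up to 6 called genes per list, the 4 nearest tested genes on each side of the chromosome 4 block and the 5 genes nearest in pattern to EREG and ERBB2. Other genes were named outside these rules. Among them are ADAM9, ADAM10, ADAM17, RHBDF2, PIK3CB, PIK3R2, PIK3R3, ERRFI1, CBL, EGR1, JUN, JUNB, CAMK2G and PLCG2. Of 94 listed pathway genes, 7 shared a row with another protein-coding gene and 20 lay below the filter. The alternatives were a pseudocount of 0.1, no filter, rescaling to the same sum, quantile normalization, a replicate block, each library left out, and vector replicate 3 and circ_0005358 replicate 2 left out together.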

Additional observations from a re-analysis of the deposited data

How the results depend on the processing

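Over the 12 alternatives the log2 fold change ran from -2.28 to -2.01 for EREG, -1.80 to -1.36 for EPGN and -2.48 to -1.51 for TGFA. It ran from -0.85 to -0.52 for AREG, -0.58 to -0.38 for BTC and 0.27 to 0.37 for ERBB2. All 5 lower ligands and ERBB2 kept their sign, but most of these outcomes were fixed in advance. Their groups did not overlap, so leaving out libraries or changing the pseudocount could not turn the sign. The filter and the replicate block leave the fold change as it was. Only rescaling and quantile normalization could have turned it. HBEGF and EGFR each changed sign in 1 of 12. TGFA, SPRY2 and DUSP4 left the test in the 4 alternatives without a vector library, and ADAM12 in the 4 without a circ_0005358 library, since the filter still asked for 3 libraries. The count of 1171 called loci was 591 with no filter on low values, 198 without both vector replicate 3 and circ_0005358 replicate 2, and 485 to 761 when 1 library was left out. The count of pathway genes called higher, 6 with all libraries, was 3 with no filter, 1 without both libraries and 1 to 5 with 1 library left out, and the count called lower, 3 with all libraries, was 1, 0 and 0 to 4. These were not always the same genes: the 1 higher without both libraries was not among the 6, 3 of the 5 higher without vector replicate 3 were, and 3 of the 4 lower without circ_0005358 replicate 2 were among the 3. Fewer libraries widen the error by construction. Same-numbered libraries deviated together only weakly (correlations 0.0644, 0.0481 and 0.0781), although each correlated best with its own number, so the numbers were not taken as pairs. With the replicate block 259 loci, 1 pathway gene higher (ADAM12) and 0 lower were called. Summing rows that share a member's name was not run, as no name stood on more than 1 row. Depth could be estimated only in relative terms, so values under 1 FPKM carry no error from counting.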

Other observations

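The deposited table also annotates loci with the KEGG ErbB signalling term, a tally added after the table was seen. With the members left out, 57 such loci were tested, of which limma called 4 higher and 2 lower with circ_0005358, 10.5% against 11.4% of all tested loci, with a median log2 fold change of 0.067. Of these, 2 lay outside the pathway lists and are named after their values were seen. CAMK2G, a calmodulin kinase gene, was higher, at 3.96 and 6.87 FPKM (log2 fold change 0.67, limma adjusted p = 0.0041). PLCG2, a phospholipase gene, was lower, at 1.20 and 0.757 FPKM (log2 fold change -0.32, limma adjusted p = 0.0479). Its circ_0005358 libraries were all below 1 FPKM (0.818, 0.760 and 0.693), so PLCG2 passed the filter through its vector libraries alone.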
